A study of Mus musculus with 12 samples.

Results

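Hippocampus of mice expressing VP16-CREB for 2 or 5 weeks was compared with hippocampus of the same kind of mice after 1 week of expression. The comparison used 5 of the 12 arrays of the series, chosen by their sample titles. The late group held 3 arrays of transgenic (VC) hippocampus, 2 of them from mice 2 weeks off doxycycline (dox) and 1 from mice 5 weeks off dox. The early group held 2 arrays of VC hippocampus 1 week off dox. All 5 arrays therefore carry the transgene in its induced state, and the contrast asks how expression differed between longer and shorter induction. Each hippocampal sample pooled tissue from 6 to 10 mice of one genotype and induction time. The labels give no strain, age, sex or promoter of the dox-regulated activator. Other arrays were used only as levels beside the comparison. They were wild-type hippocampus (2 arrays) and VC hippocampus kept on dox (1 array), called never induced here, 1 reversed VC hippocampus that had the transgene on for 3 weeks and then off again on dox for 2 weeks, and CA1, a hippocampal subfield, microdissected from VC mice that had been off dox for 3 weeks (2 arrays) and from wild-type mice (1 array). The reversed sample is transgenic by its title and wild type by its description.

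CREB is a transcription factor that binds cyclic AMP response elements and is activated in neurons by phosphorylation after synaptic activity. VP16-CREB joins it to a viral activation domain, which makes it active without that signal. In the dox-regulated system the transgene is silent while dox is given and is switched on when dox is withdrawn. Microglia are the resident macrophages of the brain. When activated, they raise complement, lysosomal and antigen-presentation genes, while activated astrocytes raise Gfap. Type I interferons signal through STAT and IRF factors to interferon-stimulated genes and to the MHC class I pathway. In RNA from a whole tissue, a change in the number of cells of one type and a change in RNA per cell cannot be told apart.

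The values were linear intensities of the Affymetrix MG-U74Av2 array. Each array was scaled to a 2% trimmed mean of 1000, floored at 65.47 (6.03 on the log2 scale) and log2 transformed. All levels below are on this log2 scale, and all differences are late minus 1 week unless stated. The 5 arrays had the same deposited trimmed mean of 3002. Correlations over tested probe sets were 0.945 to 0.965 among the late arrays, 0.96 between the 1-week arrays and 0.931 to 0.957 between the groups. The log2 ratio of the 5′ to the 3′ control probe sets of beta-actin was -1.09, -1.37 and -1.30 on the late arrays and -0.85 and -1.49 at 1 week, so the late arrays lay inside the 1-week range. For Gapdh it was -0.35, -0.36 and -0.23 on the late arrays and 0.20 and -0.38 at 1 week. On both controls 1-week array 1 had the highest ratio of the hippocampal arrays. Probe sets over their array's median on at least 2 of the 5 arrays were tested, 6543 of 12422. A probe set could pass on the arrays of 1 group alone, as Cst7 did, at 6.06 and 6.03 at 1 week. Such probe sets enter every fit with this filter only through the group where they are high. Since each array is a pool, p-values measure the spread between pooled samples and not between mice.

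Longer induction gave a small number of calls and a broader set of levels that did not overlap. Tradd and Cep250 rose in late hippocampus, and no probe set fell (limma, adjusted p at or under 0.05). This is 0.0306% of the tested probe sets for higher calls and 0% for lower calls. Without multiple-test correction, 625 probe sets had p under 0.05, 301 of them higher and 324 lower. All 3 late arrays lay above both 1-week arrays for 873 probe sets (13.3%) and below both for 852 (13%). The named genes on the higher side included ones known from microglia, MHC class I, the interferon response and astrocytes. Those on the lower side included ion channel, receptor and transcription genes. The count of 2 became 6 without the 5-week array, 1 without 2-week array 1 and 1 without 1-week array 1. It was 0 without 2-week array 2 (496 with unadjusted p under 0.05) and 0 without 1-week array 2 (620). Both calls were among the 6, and neither was called in the other 4 fits.

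Tradd encodes the adaptor that couples the TNF receptor to cell death and NF-kappaB signalling. Probe set 160689_r_at read 11.11 and 11.32 at 2 weeks and 10.65 at 5 weeks, against 8.91 and 8.53 at 1 week. The late arrays lay well above the 1-week arrays. The difference was 2.31 ± 0.24 (SE; 4.95-fold, adjusted p = 0.04394, limma). Never-induced arrays spanned most of this range, with 10.89 and 10.29 in wild type and 8.99 on dox. The _r_at suffix marks a probe set picked with relaxed rules.

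Cep250 encodes a centrosomal linker protein. Its probe set read 8.78 and 8.72 at 2 weeks and 9.14 at 5 weeks, against 7.02 and 6.95 at 1 week. With these low 1-week levels it may have passed the filter on the late arrays alone, as Cst7 did. The groups were apart by more than the spread within either, and the difference was 1.89 ± 0.19 (SE; 3.71-fold, adjusted p = 0.04394, limma). Again the never-induced arrays covered both ends, with 6.82 and 8.26 in wild type and 9.09 on dox. Both calls thus separate longer from shorter induction without separating induced from never-induced hippocampus.

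**Figure D1:**
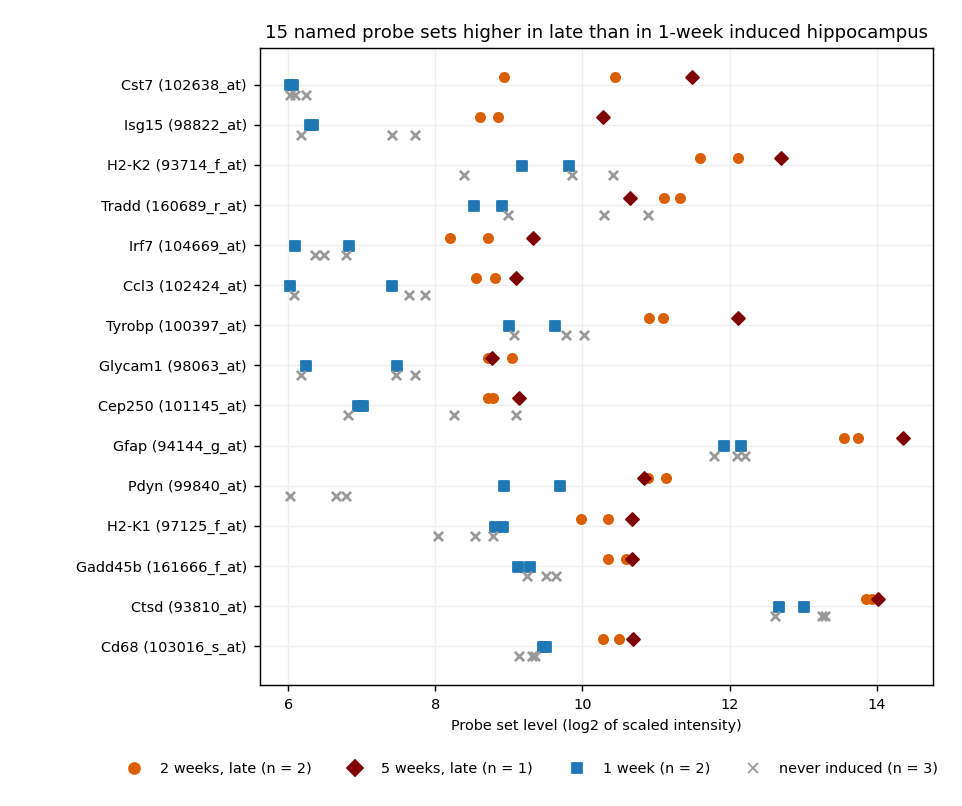
Levels of the 15 named probe sets with late arrays above 1-week arrays, on the log2 scale of scaled intensity. Points are single arrays, orange circles at 2 weeks, dark red diamonds at 5 weeks, blue squares at 1 week and grey crosses never induced. For Cst7 the late arrays read 8.94 to 11.49 while both 1-week arrays sit at or near the floor, and for Tradd and Cep250 the grey crosses spread over both groups.

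The other 13 named probe sets with late arrays above 1-week arrays did not pass after correction for all 6543 tests (adjusted p 0.1032 to 0.1589, limma). They were taken as those with the smallest unadjusted p. Several are microglial. Cst7 encodes cystatin F, which inhibits cysteine proteases of the lysosome. It read 8.94 and 10.44 at 2 weeks and 11.49 at 5 weeks, against 6.06 and 6.03 at 1 week. One 1-week array lay at the floor, so the 4.24 ± 0.61 difference is a lower bound, at least 18.9-fold. Without the 5-week array it was 3.64, at least 12.5-fold. The never-induced arrays, at 6.03 to 6.24, were as low as the 1-week arrays, while the reversed array read 9.64. Tyrobp, a signalling adaptor of microglial receptors, read 10.91 and 11.10 at 2 weeks and 12.12 at 5 weeks, against 9.0 and 9.63 at 1 week (2.06 ± 0.37). Cd68, a lysosomal membrane protein of macrophages, differed by 1.00 ± 0.19, and Ctsd, the lysosomal protease cathepsin D, by 1.09 ± 0.18. In all 4 genes the 5-week array was the highest.

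MHC class I heavy chains present peptides to CD8 T cells. H2-K2 probe set 93714_f_at read 11.60 and 12.11 at 2 weeks and 12.70 at 5 weeks, against 9.82 and 9.18 at 1 week (2.64 ± 0.33). H2-K1 probe set 97125_f_at read 9.98 and 10.35 at 2 weeks and 10.67 at 5 weeks, against 8.81 and 8.92 at 1 week (1.47 ± 0.23). The groups did not overlap for either. Probe sets ending in _f_at match several related genes, so the family members cannot be told apart here. A second H2-K1 probe set, 93120_f_at, differed by 1.35, and 97700_at by -0.06.

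Isg15 encodes a ubiquitin-like protein induced by interferon, and Irf7 a transcription factor that amplifies the interferon response. Isg15 read 8.85 and 8.61 at 2 weeks and 10.28 at 5 weeks, against 6.34 and 6.30 at 1 week (2.93 ± 0.45). Never-induced levels of Isg15 were scattered, at 7.72 and 7.41 in wild type and 6.17 on dox. Thus 1-week hippocampus lay below both wild-type arrays for this gene. Irf7 probe set 104669_at read 8.20 and 8.71 at 2 weeks and 9.33 at 5 weeks, against 6.83 and 6.10 at 1 week (2.29 ± 0.35). Its other probe set, 162202_f_at, differed by only 0.11, so the difference in Irf7 rests on 1 of 2 probe sets. Ccl3, a chemokine that attracts leukocytes, read 8.55 and 8.81 at 2 weeks and 9.10 at 5 weeks, against 6.03 and 7.41 at 1 week (2.10 ± 0.38). The first 1-week array was at the floor for Ccl3, so its 4.29-fold difference is at least that size.

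Gfap encodes the intermediate filament of astrocytes. Its probe set 94144_g_at read 13.75 and 13.56 at 2 weeks and 14.35 at 5 weeks, against 11.93 and 12.15 at 1 week (1.85 ± 0.25). All 3 late arrays were above the 1-week and the never-induced arrays, which read 11.79 to 12.21. A second Gfap probe set, 94143_at, differed by 1.14. Gadd45b, a stress-inducible gene that also responds to neuronal activity, read 10.59 and 10.35 at 2 weeks and 10.68 at 5 weeks, against 9.12 and 9.29 at 1 week (1.33 ± 0.18). Its second probe set, 102779_at, differed by 0.57. Glycam1, known as an endothelial mucin of lymph nodes, differed by 1.98 ± 0.34.

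Pdyn encodes prodynorphin, the precursor of opioid peptides and a known CREB target. Its probe set 99840_at read 10.89 and 11.13 at 2 weeks and 10.84 at 5 weeks, against 8.93 and 9.70 at 1 week (1.64 ± 0.25). Never-induced arrays read 6.03, 6.65 and 6.79, so the 1-week mean of Pdyn was already above all of them. This held for 3 of the 15 named probe sets of the higher group (Pdyn, H2-K1 and Cd68), 20% against 24.74% of all tested probe sets. The other Pdyn probe set, 161987_at, read 10.87 and 10.68 at 2 weeks and 10.52 at 5 weeks, against 9.83 and 9.65 at 1 week (0.95 ± 0.18). Creb1 probe set 102672_g_at read 9.14 and 9.63 at 2 weeks and 9.15 at 5 weeks, against 8.31 and 8.50 at 1 week (0.90 ± 0.21, adjusted p = 0.2244, limma). Probe set 102671_at differed by 0.68 ± 0.24 (adjusted p = 0.406, limma). Never-induced arrays read 6.03 and 6.33 in wild type and 6.03 on dox with 102672_g_at. With 102671_at they read 7.65 and 6.36 in wild type and 7.66 on dox. The 1-week mean was thus already above all of them for both. The late arrays lay above the 1-week arrays for both tested Creb1 probe sets without passing the test. A further one, 102673_at, lay under the filter and differed by -0.24, with groups that overlapped. The labels do not say whether they detect transgene RNA, endogenous RNA or both. For both genes the 5-week array was no higher than the top 2-week array, unlike for most of the immune genes above.

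On the lower side no probe set passed. The named ones had an adjusted p of 0.1032 to 0.1744 (limma). Kcna1, a voltage-gated potassium channel subunit of axons, read 7.13 and 6.98 at 2 weeks and 8.14 at 5 weeks, against 9.52 and 9.78 at 1 week (-2.23 ± 0.34). Zfpm2, a cofactor of GATA transcription factors, read 6.26 and 6.57 at 2 weeks and 7.55 at 5 weeks, against 9.02 and 8.85 at 1 week (-2.14 ± 0.35). For both, the 5-week array lay between the 2-week and the 1-week arrays. Never-induced levels of Kcna1 were scattered, at 9.56 and 7.56 in wild type and 7.34 on dox, and the reversed array read 9.22. Nfib, a nuclear factor I family member, was named by both of its probe sets. Probe set 160859_s_at read 8.81 and 8.74 at 2 weeks and 8.49 at 5 weeks, against 10.03 and 10.71 at 1 week (-1.69 ± 0.24), and 99440_at differed by -1.50 ± 0.26.

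Genes of neuronal signalling were among the rest. Gria2, an AMPA receptor subunit, read 10.16 and 10.46 at 2 weeks and 10.24 at 5 weeks, against 11.17 and 11.20 at 1 week with probe set 92946_f_at (-0.90 ± 0.17). Its further tested probe sets differed by -0.71 and -0.46, so all 3 had the same sign. Prkcb, a protein kinase C isoform, differed by -0.97 ± 0.18 with 99511_at and by -0.17 with 99510_at. Epha4, an ephrin receptor, differed by -1.37 ± 0.27, with 10.24 and 9.34 at 1 week. Its other probe set, 161866_at, lay under the filter and differed by -0.45, with groups that overlapped. Fgf13, an intracellular factor that binds sodium channels, differed by -1.43 ± 0.27, with 10.41 and 9.69 at 1 week. For Epha4, Fgf13, Snx13 and Atxn7l3b the higher was 1-week array 1, which had the highest 5′ to 3′ control ratios. For both Nfib probe sets it was array 2. The part of those ratios was not tested. Sec23a, a coat protein of vesicles leaving the endoplasmic reticulum, differed by -1.58 ± 0.28 with 93711_at and -0.23 with 104709_at. Peg3, an imprinted zinc finger gene, differed by -1.05 ± 0.20 with 101451_at but by 0.01 and -0.05 with 2 other probe sets. The last 5 were the sorting nexin Snx13 (-1.19 ± 0.22), Atxn7l3b (-1.20 ± 0.21, and -0.47 with 99645_at), the splicing factor Cdc5l (-1.18 ± 0.22, but -0.17 with 97846_at), the Mediator subunit Med1 (-0.92 ± 0.19) and the RNA-binding protein Zc3h14 (-0.82 ± 0.16).

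**Figure D2:**
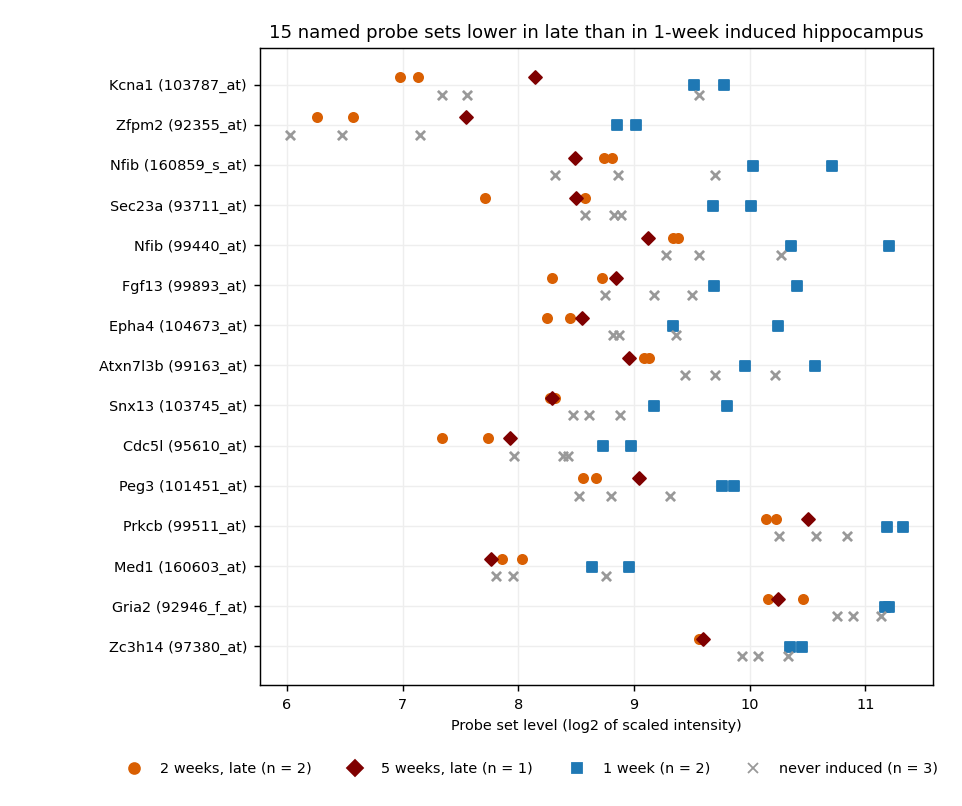
Levels of the 15 named probe sets with late arrays below 1-week arrays, on the log2 scale of scaled intensity. Orange circles are 2-week, dark red diamonds 5-week, blue squares 1-week and grey crosses never-induced arrays. The 1-week mean (blue squares) is above all never-induced arrays in 15 of 15, and the late mean falls within their range in 7 and below it in 8. The 15 were chosen with the late and 1-week arrays.

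When the 5-week array was left out, 6 probe sets differed between 2 weeks and 1 week (limma, 4 arrays). Isg15 (5.31-fold, 2.41 ± 0.19, adjusted p = 0.01206), Tradd (5.64-fold, 2.50 ± 0.21, adjusted p = 0.01412) and Cep250 (3.39-fold, 1.76 ± 0.18, adjusted p = 0.03491) rose at 2 weeks, which is 0.0459% of the tested probe sets. Kcna1 (6.02-fold lower, -2.59 ± 0.19, adjusted p = 0.01206), Zfpm2 (5.74-fold lower, -2.52 ± 0.20, adjusted p = 0.01206) and 92802_s_at, which has no gene symbol here (3.50-fold lower, -1.81 ± 0.20, adjusted p = 0.0483), fell, again 0.0459%. Isg15 and Cep250 were low at 1 week, and Kcna1 and Zfpm2 were low at 2 weeks. These probe sets may have passed the filter only through the group where they are high, which limits what their calls show. The 2 late calls were among the 6. Both comparisons use the same 1-week arrays. With p uncorrected, 795 probe sets were under 0.05, 335 higher and 460 lower. The count was 1 without 2-week array 1, 10 without 2-week array 2, 37 without 1-week array 1 and 116 without 1-week array 2, sharing 0, 2, 6 and 6 of the 6 in that order.

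For Isg15, Kcna1 and Zfpm2 the 5-week level differed from the 2-week levels by more than the 2-week arrays differed from each other, which counts as spread in the late group. With 2 and 5 weeks as separate levels in the fit, the late mean against 1 week gave 15 probe sets, 12 higher and 3 lower. The 12 were Tradd, Cep250, Cst7, Isg15, H2-K2, Irf7, Tyrobp, Gfap, H2-K1, Cd52, C1qa and C1qc. In that fit Cst7 had an adjusted p = 0.01689, Isg15 0.004841, Gfap 0.01689 and H2-K2 0.01772 (limma). Cd52, a leukocyte surface protein, read 9.44 and 9.85 at 2 weeks and 10.52 at 5 weeks, against 8.45 and 8.42 at 1 week (1.50 ± 0.19 in that fit). C1qa, a chain of the complement initiator C1q, read 12.41 and 12.38 at 2 weeks and 13.47 at 5 weeks, against 11.41 and 11.26 at 1 week (1.42 ± 0.16 in that fit). The 3 lower ones were Kcna1, Zfpm2 and 92802_s_at. The residual spread of that fit comes from the pairs of 2-week and 1-week arrays alone.

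Gene lists were read by counts and medians beside those of all tested probe sets, whose median difference was 0.00. In the late comparison no list member passed the correction, and no list score was tested. The lists share members, so their counts are not separate results. The C1q chains are in the microglial and complement lists, and Cd68 in the microglial and lysosome lists. Ctss is in the microglial, MHC class II and lysosome lists. Psmb8 is in the interferon, MHC class I and reactive astrocyte lists. Gfap, Mt1 and Mt2 are in both astrocyte lists. Microglia and macrophage markers had the highest median, 0.99, or 0.77 without the 5-week array. Of 22 tested members, 16 had all late arrays above both 1-week arrays and 1 all below, where the share over all tested probe sets was 13.3% above. Their mean level was 10.26 and 10.46 at 2 weeks and 11.00 at 5 weeks, against 9.76 and 9.72 at 1 week. Late arrays were all above, and 17 of the 22 had an unadjusted p under 0.05. The C1q chains C1qa (1.42), C1qb (1.08) and C1qc (1.41), the protease Ctss (1.33), the growth factor receptor Csf1r (0.63), Aif1 (1.49) and Laptm5 (0.97) were among the 16. Cx3cr1, the fractalkine receptor of microglia, differed by -0.19, and Coro1a by -0.05. Vav1 had the other sign, at -1.31, with 6.55 and 7.39 at 2 weeks and 8.36 at 5 weeks, against 8.82 and 8.68 at 1 week. The defining markers therefore did not move as a block.

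**Figure D3:**
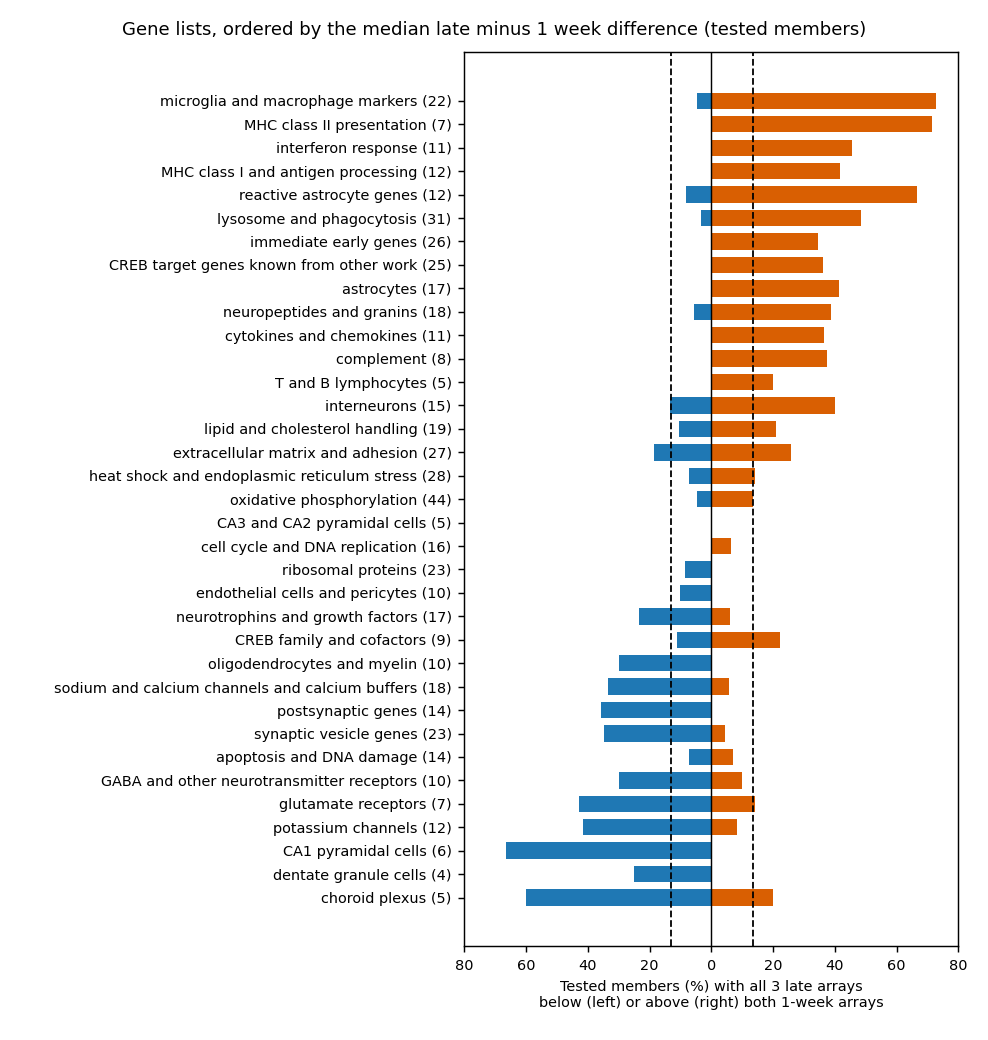
Share of tested members, in percent, whose 3 late arrays all lie above (right, orange) or all below (left, blue) both 1-week arrays, for lists with at least 4 tested members (number in brackets). Dashed lines mark the shares over all tested probe sets, 13.3% above and 13% below. The microglial, MHC class II and reactive astrocyte lists reach furthest right, and the CA1 pyramidal and choroid plexus lists furthest left.

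Antigen presentation followed. For MHC class II, which presents peptides to CD4 T cells, 5 of 7 tested genes had all late arrays above and none below (median 0.82). H2-Ab1, a class II chain, read 9.48 and 9.83 at 2 weeks and 10.40 at 5 weeks, against 6.63 and 8.30 at 1 week (2.43 ± 0.47, adjusted p = 0.1589, limma). Cd74, the invariant chain, read 9.56 and 9.82 at 2 weeks and 11.93 at 5 weeks, against 9.45 and 9.39 at 1 week. The Cd74 difference thus lay mostly in the 5-week array. For MHC class I and antigen processing 5 of 12 were all above and none below (median 0.64, or 0.31 without the 5-week array). H2-D1 differed by 1.66 ± 0.34 and H2-Q4 by 1.26 ± 0.41. The peptide transporter Tap1 differed by 0.91 ± 0.21. The light chain B2m read 11.63 and 12.16 at 2 weeks and 13.46 at 5 weeks, against 11.36 and 11.82 at 1 week, so the groups overlapped. Tapbp (-0.10), Canx (-0.10) and Pdia3 (-0.43), which fold and load class I chains, did not share the sign. Of all tested probe sets, 13.3% were all above and 13% all below.

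Interferon response genes had 5 of 11 tested members all above and none below, with a median of 0.71. Without the 5-week array the median was 0.24, and the mean level was 9.13 and 9.39 at 2 weeks and 10.28 at 5 weeks, against 8.90 and 8.74 at 1 week. Ifit3 read 8.21 and 8.66 at 2 weeks and 10.32 at 5 weeks, against 8.43 and 7.97 at 1 week. Ifitm3 read 10.37 and 10.96 at 2 weeks and 12.06 at 5 weeks, against 10.53 and 10.31 at 1 week. For both genes the first 2-week array was no higher than a 1-week array, and the 5-week array stood apart. Gbp3, an interferon-induced GTPase, differed by 0.95 ± 0.43 (0.48 without the 5-week array) and Lgals3bp by 1.30 ± 0.54 (0.68 without it). Isg15, by contrast, was over 2 log2 units above 1 week on both 2-week arrays. The share all above was 13.3% over all tested probe sets, and the share all below 13%.

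The core of the interferon-stimulated response element is the sequence bound by IRF factors. Its letters, GAAANNGAAA, were searched on both strands, overlapping matches included, in RefSeq windows (GRCm38.p6) from 250 bases before to 50 after each gene start. They were found in 3.44% of 32851 windows, in 4 of 10 interferon response genes with a window (Isg15, Ifit3, Ifitm3 and Gbp3), in 2 of 12 MHC class I genes (B2m and Psme1) and in 1 of 12 named genes of the higher group (Isg15). The letters of the cyclic AMP response element, TGACGTCA, were in 1.79% of windows and in none of these genes with a window. Its shorter core, TGACG, was in 20.8% of windows, in 8 of 12 MHC class I genes, in 5 of 12 named genes of the higher group and in 1 of 10 interferon response genes. A gene was counted when any of its windows held a match, while the percentages are shares of single windows. The gene counts and the percentages are therefore unlike measures. A match is a description of the letters and not a measured site. Matches to the interferon element are in capitals below (on the opposite strand they read TTTCNNTTTC). Stretches are shown 5′ to 3′ on the strand of the gene, for genes of these sets with a match wholly before the gene start. They lie at chr4:156200855-156200916 (minus strand) for Isg15, chr19:34583353-34583436 (plus) for Ifit3, chr3:142559979-142560034 (plus) for Gbp3 and chr2:122147528-122147577 (plus) for B2m.
Isg15: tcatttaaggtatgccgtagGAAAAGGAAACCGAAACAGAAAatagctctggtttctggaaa
Ifit3: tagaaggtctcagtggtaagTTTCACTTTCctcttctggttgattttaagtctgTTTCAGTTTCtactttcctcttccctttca
Gbp3: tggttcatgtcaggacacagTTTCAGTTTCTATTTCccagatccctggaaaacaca
B2m: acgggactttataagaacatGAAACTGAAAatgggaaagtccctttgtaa

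Isg15 held 3 overlapping matches, Ifit3 2 separate ones, Gbp3 2 overlapping ones and B2m 1. No relation between matches and level was tested.

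**Figure D4:**
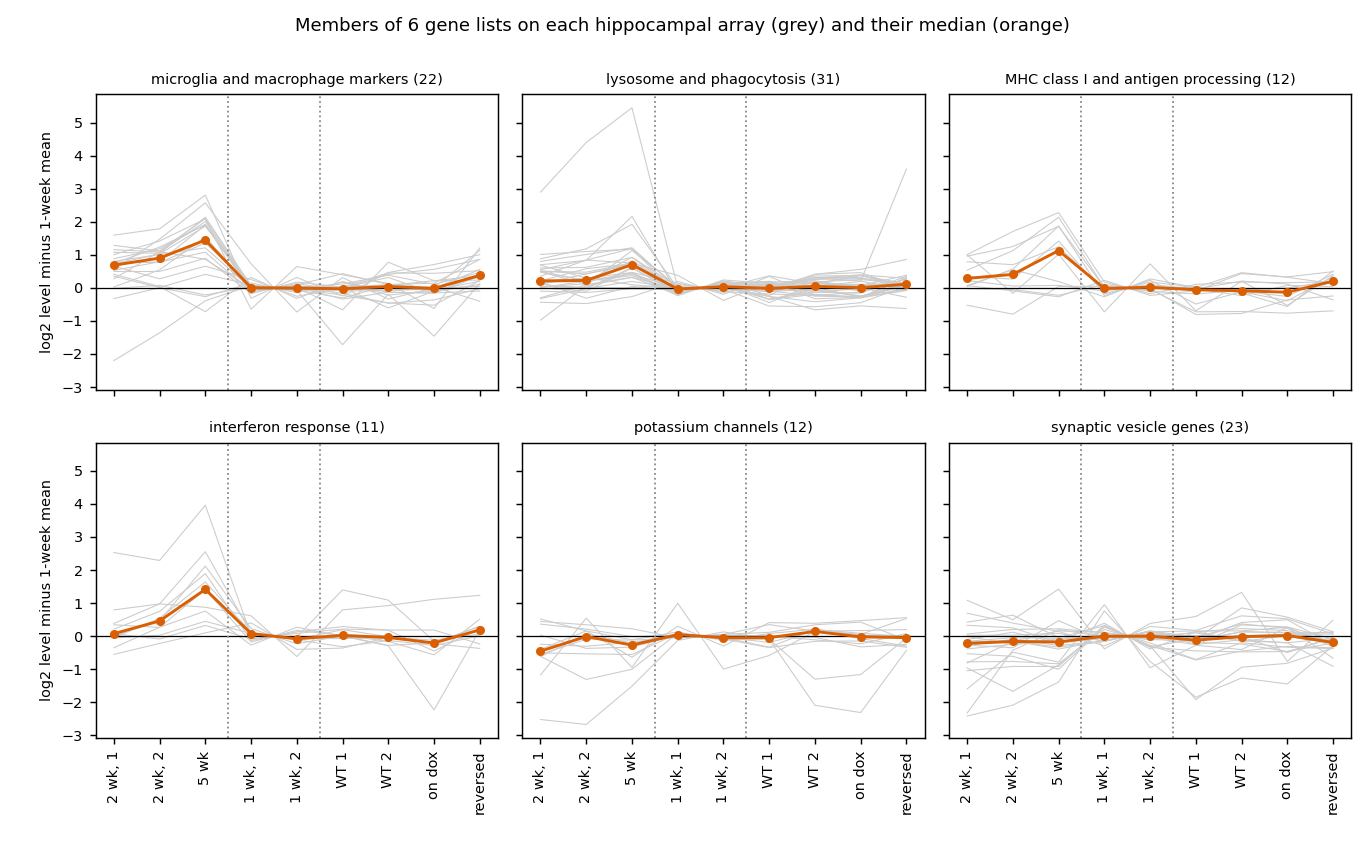
Log2 level minus the 1-week mean for tested members of 6 lists (grey lines, 1 per gene) and the list median (orange) on each hippocampal array. Late arrays stand left, the 1-week arrays in the middle, and wild-type, on-dox and reversed arrays right. The microglial median is 0.68 and 0.90 at 2 weeks and 1.44 at 5 weeks, against -0.03 to 0.04 on the never-induced arrays and 0.37 on the reversed array. The interferon median is 0.08 and 0.46 at 2 weeks and 1.42 at 5 weeks.

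Lysosome and phagocytosis genes had 15 of 31 tested members all above and 1 all below (median 0.38). Besides Cst7, Ctsd and Cd68, these included the cathepsins Ctsb (0.54), Ctsz (1.23) and Ctsa (0.57), the lysosomal cholesterol carrier Npc2 (0.71) and progranulin, Grn (0.86). The lipid carrier Apoe, made mainly by astrocytes and microglia, read 15.55 and 15.16 at 2 weeks and 15.33 at 5 weeks, against 14.68 and 15.05 at 1 week. Npc1 (-0.03), Tpp1 (-0.09) and Lamp2 (-0.20) were 3 of the 4 members with the other sign, against 27 with a positive difference. Complement had 3 of 8 all above, and those 3 were the C1q chains, which are also in the microglial list. Of cytokines and chemokines, 4 of 11 were all above, including Ccl9 (1.07 ± 0.43). Only 5 of the 19 T and B lymphocyte markers on the array passed the filter, with 1 all above (median 0.14). Among all tested probe sets, 13.3% were all above and 13% all below.

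Among 12 tested reactive astrocyte genes, 8 were all above and 1 all below (median 0.49). The metallothioneins Mt1 (0.61 ± 0.19) and Mt2 (0.80 ± 0.18), the secreted protease inhibitor Serpina3n (0.68 ± 0.21) and S100a10 (0.80 ± 0.20) were among the 8. For Mt1, Mt2 and S100a10 the 1-week mean lay below all never-induced arrays, and for Serpina3n within their range. The late mean of S100a10 was 10.79, against 10.75 on the highest never-induced arrays. In CA1, VC minus wild type was -0.51 for Mt1 and -0.42 for Mt2, but 0.95 for Serpina3n and 0.61 for S100a10. Mt2 read 15.12 and 14.84 at 2 weeks and 15.06 at 5 weeks, against 14.13 and 14.27 at 1 week. For Mt2 the 5-week array was not above the top 2-week array, unlike for Gfap. Timp1 was the member all below (-0.36). The general astrocyte list had 7 of 17 all above and none below, with a median of 0.22. All tested probe sets had 13.3% all above and 13% all below.

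Immediate early genes, transcribed within minutes of neuronal activity, had 9 of 26 all above and none below (median 0.24). Fos read 11.26 and 11.49 at 2 weeks and 12.46 at 5 weeks, against 10.52 and 10.84 at 1 week (1.06 ± 0.34, adjusted p = 0.3416, limma). The stress factor Atf3 read 10.22 and 10.35 at 2 weeks and 10.43 at 5 weeks, against 9.42 and 9.49 at 1 week (0.88 ± 0.17, adjusted p = 0.1589, limma). Egr1 (0.06), Nr4a1 (0.12) and Btg2 (0.02), also activity-regulated, differed little. CREB targets known from other work had 9 of 25 all above and none below (median 0.23), and several are shared with the immediate early list. The neurotrophin Bdnf differed by 0.27 ± 0.19. Set beside both lists, 13.3% of all tested probe sets were all above and 13% all below.

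Inhibitory neuron and peptide genes included Slc32a1, the vesicular GABA transporter. It read 13.24 and 13.25 at 2 weeks and 13.17 at 5 weeks, against 11.65 and 12.35 at 1 week (1.22 ± 0.23, adjusted p = 0.1589, limma). Npy, neuropeptide Y, read 12.56 and 12.82 at 2 weeks and 12.89 at 5 weeks, against 11.61 and 11.98 at 1 week (0.96 ± 0.20, adjusted p = 0.1758, limma). Sst, somatostatin, differed by 0.51 ± 0.17 and the granin Chga by 0.57 ± 0.16. All 3 late arrays lay above both 1-week arrays for these 4. Over the interneuron list 6 of 15 were all above and 2 all below, and over neuropeptides and granins 7 of 18 and 1. Shares over all tested probe sets were 13.3% above and 13% below. Nxph1, another interneuron marker, differed by -1.03 ± 0.25.

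Several neuronal lists had negative medians, while those of the interneurons (0.14), the neuropeptides and granins (0.22) and the CA3 and CA2 pyramidal cells (0.03) were positive. CA1 pyramidal markers had 4 of 6 all below and none above (median -0.35), against the 13% below of all tested probe sets. Wfs1, a defining CA1 marker, read 10.90 and 11.18 at 2 weeks and 11.03 at 5 weeks, against 11.49 and 11.46 at 1 week (-0.44 ± 0.17). Dentate granule markers had 1 of 4 all below (median -0.42), the tryptophan-degrading enzyme Tdo2 (-1.05 ± 0.28). CA3 and CA2 markers had none in either direction. Potassium channels had 5 of 12 all below and 1 above (median -0.25). Beside Kcna1 they included the calcium-activated channel Kcnma1 (-0.97 ± 0.23) and the beta subunit Kcnab1, at 10.71 and 10.68 at 2 weeks and 10.66 at 5 weeks, against 11.30 and 11.13 at 1 week (-0.53 ± 0.16).

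Sodium and calcium channels and buffers had 6 of 18 all below and 1 above, among them Cacna2d1 (-1.52 ± 0.32) and Scn8a (-0.78 ± 0.19). Synaptic vesicle genes had 8 of 23 all below and 1 above (median -0.17). Syt1, the calcium sensor of vesicle release, read 9.90 and 10.23 at 2 weeks and 10.93 at 5 weeks, against 13.08 and 11.55 at 1 week (-1.97 ± 0.46, adjusted p = 0.2244, limma). The pair of 1-week arrays differed from each other by more than the late arrays did, and the higher was array 1, which also had the highest 5′ to 3′ control ratios. The part of those ratios was not tested. Syn2 (-0.96 ± 0.22) and the fusion ATPase Nsf (-0.79 ± 0.19) had the same sign, while Vamp2 (0.05) and Syp (0.17) did not. Postsynaptic genes had 5 of 14 all below. Camk2a, a kinase of the postsynaptic density, was scattered with probe set 93660_at, at 6.96 and 7.15 at 2 weeks and 8.84 at 5 weeks, against 10.79 and 8.96 at 1 week, again highest on 1-week array 1. Glutamate receptors had 3 of 7 all below, and GABA and other transmitter receptors 3 of 10, with Gabra2 (-1.12 ± 0.30) and Gabrb1 (-1.01 ± 0.27). Beside these counts, 13% of all tested probe sets were all below and 13.3% all above.

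Choroid plexus, a tissue next to the hippocampus, had 3 of 5 markers all below and 1 above (median -0.63). Ttr, its main secreted protein, read 8.64 and 12.15 at 2 weeks and 12.58 at 5 weeks, against 12.91 and 13.10 at 1 week. The 2-week array 1 stood far below the others, and the mean of the list was 9.44 there, against 10.59 on 2-week array 2 and 10.79 at 5 weeks and 10.90 and 10.98 at 1 week. The part of this difference in other results was not tested. Oligodendrocyte markers had 3 of 10 all below (median -0.07), endothelial markers 1 of 10 (-0.01), ribosomal proteins 2 of 23 (-0.01) and oxidative phosphorylation 6 of 44 above and 2 below (0.08). These medians lie near that of all tested probe sets, of which 13.3% were all above and 13% all below.

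The arrays outside the comparison were set beside the named probe sets. For the 15 higher ones, the late mean was above all 3 never-induced arrays in 14 (18.86% of all tested probe sets). The 1-week mean was within the never-induced range in 10 (47.88% of all tested). The 15 were chosen with the late and 1-week arrays, so these shares are partly fixed by that choice. In CA1, VC minus wild type was positive in 13 of the 15, where it was positive for 47.99% of all tested probe sets. The exceptions were the 2 called genes. Tradd read 8.52 and 10.60 in VC CA1, against 10.66 in wild-type CA1, and Cep250 8.16 and 6.70 in VC CA1, against 8.66 in wild-type CA1. Cst7 read 10.79 and 10.96 in VC CA1, against 6.03 in wild-type CA1, so it read high in VC CA1 as well. There is 1 wild-type CA1 array, so these signs were not tested. Reversed minus never induced was positive in 8 of the 15, near the 52.99% of all tested probe sets. The 5-week array was above both 2-week arrays in 12 of the 15, against 35.35% of all tested probe sets, although the 15 were chosen with these arrays.

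Over all 873 probe sets with late arrays above 1-week arrays, the late mean was above the never-induced arrays in 45.59%, against 18.86% of all tested probe sets. The 1-week mean was below them in 59.56%, against 27.37% of all tested probe sets. Thus the 1-week arrays lay outside the never-induced range more often over the 873 than among the 15 named. Reversed minus never induced was positive in 33.45% of the 873, against 52.99% of all tested probe sets, and the reversed array was below all never-induced arrays in 41.81%, against 27.28%.

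For the 15 lower probe sets the 1-week mean was above all never-induced arrays in 15. The late mean was below them in 8 and within their range in 7. Over all 852 probe sets with late arrays below 1-week arrays, the 1-week mean was above the never-induced arrays in 65.26%, against 24.74% of all tested probe sets, and the late mean was below them in 50.47%, against 25.71%. The 15, the 873 and the 852 were chosen with the late and 1-week arrays, so these shares are partly fixed by that choice. Reversed minus never induced was negative in 2 of the 15, against 47.01% of all tested probe sets. The reversed array was above all never-induced arrays in 50.59% of the 852, against 30.98% of all tested probe sets. Wild-type array 1 was above the other never-induced arrays in 52.23%, against 38.59%. That array had a deposited trimmed mean of 500.3, against 3002 on every other hippocampal array, and the part of this difference was not tested. In CA1, VC minus wild type was negative in 8 of the 15, near the 51.99% of all tested probe sets.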

How the data were processed

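RNA from pooled mouse hippocampus (9 arrays) and from microdissected CA1 was hybridised to Affymetrix MG-U74Av2 arrays, 12 in all. No pool size is given here for the CA1 arrays. The deposited values are linear intensity values, made by the authors with GCOS, per the submitters' processing notes. GCOS was run with settings (version, algorithm, scaling) not given in the sources used here. Each array was scaled to a 2% trimmed mean of 1000, floored at the 20th percentile of all 12 arrays and log2 transformed here. Of 12488 probe sets, 66 controls were left out. Of the other 12422, 10833 had 1 symbol, 396 several and 1193 none.

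Samples were grouped by title. Late and 1-week arrays were compared with limma 3.58.1 in R 4.3.3 (lmFit, eBayes, 2-sided, Benjamini-Hochberg over all tested probe sets), leaving 3 residual degrees of freedom, and again without the 5-week array. The number of arrays limits the precision. The script was tested on simulated data. Named probe sets were those called, filled up to 15 a direction with the smallest p among those with 1 symbol and groups that did not overlap, and up to 4 per list of the 36 gene lists, plus Creb1 and Pdyn. Further list members, and calls of alternative fits, were picked out after their values were seen. The members and lists were chosen with earlier results of these data known. List values use the brightest probe set of a gene.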

Additional observations from a re-analysis of the deposited data

Results flagged for a closer look

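For 4 gene lists the 2-week arrays and the 5-week array lay on opposite sides of both 1-week arrays, by the mean level of the tested members. The difference between 5 weeks and 2 weeks was not tested in any of them, since 5 weeks is a lone array. T and B lymphocyte markers (5 tested) averaged 10.18 at 5 weeks and 10.71 and 10.60 at 2 weeks, a difference of -0.48, with 10.52 and 10.30 at 1 week. CA3 and CA2 pyramidal markers (5 tested) averaged 11.05 at 5 weeks and 11.34 and 11.32 at 2 weeks, a difference of -0.28, with 11.21 and 11.19 at 1 week. The CREB family and cofactors (9 tested) averaged 10.25 at 5 weeks and 9.97 and 10.09 at 2 weeks, a difference of 0.22, with 10.13 and 10.09 at 1 week. Apoptosis and DNA damage genes (14 tested) averaged 9.83 at 5 weeks and 9.50 and 9.60 at 2 weeks, a difference of 0.28, with 9.82 and 9.73 at 1 week.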

How the results depend on the processing

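With limma, the count of 2 for late against 1 week ran from 0 to 6 when each array was left out in turn. It was 0 with 50 added in place of the floor (629 with unadjusted p under 0.05), 0 with all 12 arrays in the fit (530), 1 without a filter, 8 with probe sets above the median on all 5 arrays (neither holding Tradd or Cep250), 10 with trend and robust settings and 15 with 3 levels. The filter on all 5 arrays leaves out probe sets low on any array, so absence from the 8 need not be a failed test. The count of 6 for 2 weeks against 1 week ran from 1 to 116 when each array was left out, and was 1 with all 12 arrays and 0 without a filter (1330). Shared replicate numbers are not stated to pair these pools. Deviations of same-numbered arrays correlated at -0.115 over 2 pairs, too few to decide whether they share a batch, litter or day. The replicate block without the 5-week array, which makes both comparisons the same fit, gave 54, and the crossed pairing, added after seeing the data, 12. The causes were not tested. Scaling to a median, quantile normalization, other floors and values as deposited left the late count at 2 or 3. None of the 30 named probe sets changed sign in 16 settings, which was partly fixed, since their late and 1-week arrays did not overlap. Among the other 69, Hba-a1, the tested blood marker, ran from -0.84 to 0.24 with each array left out (-0.30 with all, and 0.04 without 2-week array 2). Of 468 list medians under alternatives, 63 moved by more than the spread between replicates. With 5 pools, small differences and probe sets near the floor cannot be resolved.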

Other observations

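Several groups not described above held members whose late and 1-week arrays did not overlap, given here as values. In the stress list, Ddit3, a transcription factor of the unfolded protein response, read 10.14 and 10.20 at 2 weeks and 10.15 at 5 weeks, against 9.62 and 9.39 at 1 week (0.66 ± 0.17, adjusted p = 0.2498, limma). Apaf1, the scaffold of the apoptosome, read 8.58 and 8.58 at 2 weeks and 8.60 at 5 weeks, against 9.23 and 9.10 at 1 week (-0.58 ± 0.16, adjusted p = 0.2865, limma). In these lists 4 of 28 and 1 of 14 members were all above, and 2 and 1 all below, near or under the 13.3% above and 13% below of all tested probe sets. Extracellular matrix and adhesion genes had members in both directions, 7 of 27 above and 5 below. Cd47, a surface protein that restrains phagocytosis, read 10.56 and 10.48 at 2 weeks and 10.48 at 5 weeks, against 11.15 and 11.23 at 1 week (-0.69 ± 0.16, adjusted p = 0.2244, limma). Col4a1, a basement membrane collagen, differed by 0.61 ± 0.18. None of these passed the test.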
